A study of Mus musculus with 42 samples.

Results

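The light-phase change of the liver transcriptome was examined in 6 of the 42 mice of the series, all fed AIN93G, a purified standard diet with soybean oil as its fat. The 3 mice killed at ZT 8 were compared with the 3 mice killed at ZT 0. ZT, or zeitgeber time, counts hours from lights on, so ZT 0 was the start of the light phase and ZT 8 lay within it. Members were chosen by diet and time point alone, from the sample records. All 6 were female mice, of strain C57BL/6 in the sample records and C57BL/6NHsd in the study's methods, that had received the diet for 3 weeks from weaning at 3 weeks of age. They were not fasted, and ketamine with xylazine was given before tissue collection. The 3 AIN93G mice of ZT 4 are given as levels between both times. The 6 mice of ZT 0 and ZT 8 on a high-fat diet (HFD), which was AIN93G with more soybean oil and less corn starch, were of the same sex, strain and age. Poly(A) RNA of whole liver was read by paired-end sequencing, and each library came from 1 mouse, so that p-values measure the spread between these mice.

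The liver clock is a loop of transcription and translation. CLOCK or NPAS2 pairs with BMAL1, the product of Arntl, binds E-boxes and activates the Per, Cry, Rev-erb (Nr1d) and Dbp genes. PER and CRY proteins then inhibit that pair, and the REV-ERB receptors repress Arntl, Npas2, Cry1 and Nfil3 at ROR elements, where ROR receptors activate. DBP, TEF and HLF carry the rhythm to D-boxes of metabolic genes, which NFIL3 represses. In liver, which responds to feeding as well as to light, the loop is known for its control of heme, glycogen, bile acid and lipid metabolism, and mice mostly eat in the dark phase.

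Total counts were 15128304 to 17975846 per library in the 6 libraries. CPM below is the read count of a gene relative to its library size after TMM scaling, values are listed for replicates 1, 2 and 3 in that order, and a fold is on the scale of the edgeR fit. A gene rose or fell where the quasi-likelihood test of edgeR gave a Benjamini-Hochberg adjusted p under 0.05 over 12038 tested genes, and each adjusted p given for a gene is from that test. The summed level of 20 hepatocyte markers was 146250 to 157172 CPM at ZT 0 and 140176 to 192081 CPM at ZT 8. One library stood apart. In ZT 8 replicate 2, 5 skeletal muscle markers summed to 1607 CPM, against 2.47 to 10.2 CPM in the other 5 libraries, with 516 CPM of the muscle actin Acta1. There, 124 genes lay at least 4 times above the highest of the other 5 libraries, and 0 of those 124 passed the test. Adipocyte markers summed to 18.8 to 27.3 CPM at ZT 0 and 31.01 to 54.9 CPM at ZT 8, with Lep, Retn and Plin1 at no more than 3 counts in each library. The part of these other cells in the results was not tested, and the total counts of calls are therefore given also without ZT 8 replicate 2. In whole tissue, fewer cells of a type and less RNA per cell cannot be told apart.

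At ZT 8, 157 genes were higher than at ZT 0, which is 1.30% of those tested, and 184 were lower, which is 1.53%. An unadjusted p under 0.05 was reached by 2188 genes, or 18.2%. The change was at least 2-fold in 81 of the higher and 116 of the lower genes, and at least 4-fold in 27 and 36. The median of all tested genes was 0.01 on the log2 scale. The groups did not overlap in CPM in 23.5% of tested genes, and in each of the 341 that passed. The ZT 4 mean lay between the means of ZT 0 and ZT 8 in 142 of the 157 and in 167 of the 184. Without ZT 8 replicate 2 the counts were 120 and 121, and 213 of the 341 calls were kept, 103 of the higher and 110 of the lower. Leaving out a ZT 0 library lowered the counts further, to 70 higher and 105 lower without replicate 1, 57 and 72 without replicate 2 and 44 and 74 without replicate 3. DESeq2 called 409 higher and 449 lower genes, and a single fit of ZT 0 to ZT 12 called 0 and 4. Scaling by library size alone gave 129 higher and 234 lower genes, so that the higher share was 35.5% instead of 46.04%.

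**Figure D1:**
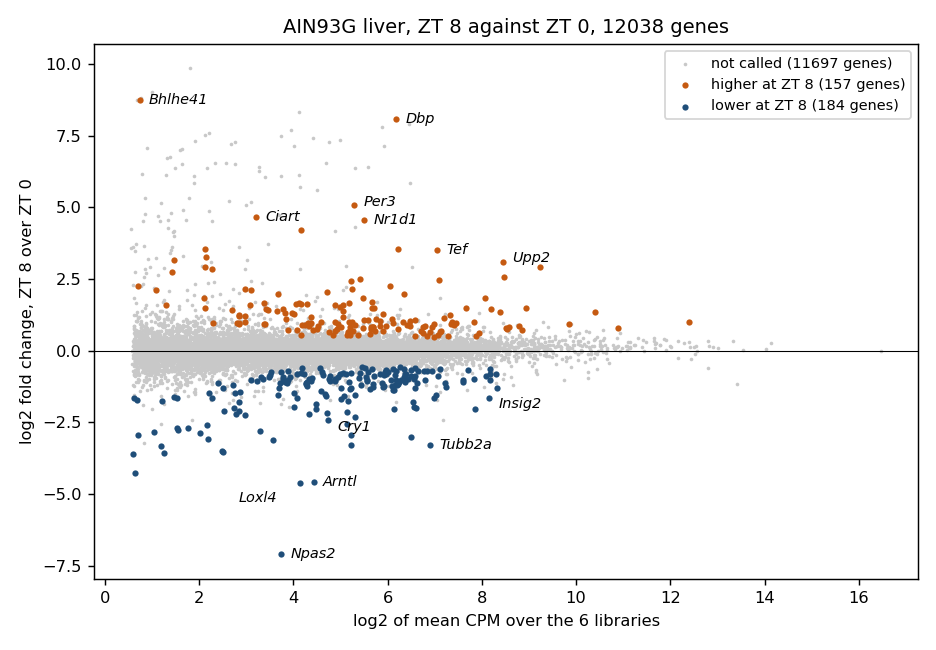
Log2 fold change from ZT 0 to ZT 8 on the AIN93G diet (y axis) against mean level over the 6 libraries (x axis, log2 of mean CPM), 1 point per tested gene, with the 157 higher and 184 lower genes coloured. Among called genes the extremes are Dbp upward and Npas2 downward, while Bhlhe41 is placed by a fitted fold over a group with 0 counts and its height is no measured size. Of the 112 uncalled (grey) genes at a log2 change of 2 or more, 103 are among the 124 that stood out in ZT 8 replicate 2.

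The clock led both directions. Of 19 tested genes of the loop and its D-box arm, 9 rose and 5 fell, against 1.30% and 1.53% of all genes. These were 0 higher and 3 lower of the 5 tested activators (median log2 change -1.26), 6 higher and 1 lower of 10 repressors (median 2.82) and 3 higher and 1 lower of 4 D-box regulators (median 2.17). Over the 6 fits that left out a library, 2 to 4 activators fell, 4 to 7 repressors rose and 2 to 3 D-box regulators rose, with the fewest repressors without ZT 0 replicate 1 or 2 and the fewest of the others without ZT 0 replicate 2 or 3. With a minimum of 25 counts in every library, which drops genes near 0 at either time, 2 activators fell, and 3 repressors and 2 D-box regulators rose. Of the 19, the falling genes were the activators Arntl, Npas2 and Clock with Cry1 and Nfil3, and the other called genes rose. Bhlhe41, Ciart and Dbp had a mean count under 25 at ZT 0, and Npas2 at ZT 8. They met the minimum of the test only through the group where they were high, so the filter itself favoured a difference in them. Among all calls, 12 of the 157 higher and 21 of the 184 lower genes were of this kind. The clock lists were written with earlier results of these data known, so their shares are descriptions.

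To show the elements named above, promoters of a few called clock genes that hold a motif were read from the RefSeq table for GRCm38.p6. They are given as the 250 bases before the start of transcription on the strand of the gene. Motifs were searched on both strands in the window from 250 bases before to 50 bases after the start, as the E-box CACGTG, the D-box TTATGTAA (or its reverse complement) and the ROR element core TAGGTCA (or its reverse complement TGACCTA). Capitals mark these letters. Among all 32851 promoters of the table, 7.15% held the E-box, 1.06% the D-box and 6.45% the ROR element core. Ciart, at chr3:95882229-95882478 on the minus strand, held 3 E-boxes.
Ciart: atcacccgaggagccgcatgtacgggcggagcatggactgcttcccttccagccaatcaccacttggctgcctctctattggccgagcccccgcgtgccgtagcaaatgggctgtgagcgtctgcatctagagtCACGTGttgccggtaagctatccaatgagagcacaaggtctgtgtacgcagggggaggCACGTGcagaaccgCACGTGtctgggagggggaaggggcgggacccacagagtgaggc
Tef, at chr15:81802423-81802672 on the plus strand, held 1, as did its other start.
Tef: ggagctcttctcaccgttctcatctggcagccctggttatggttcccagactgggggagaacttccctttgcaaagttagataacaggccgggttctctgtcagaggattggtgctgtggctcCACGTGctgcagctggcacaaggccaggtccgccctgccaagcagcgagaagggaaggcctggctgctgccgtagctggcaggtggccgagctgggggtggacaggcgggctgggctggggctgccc
Cry1, at chr10:85185055-85185304 on the minus strand, held 1 E-box too.
Cry1: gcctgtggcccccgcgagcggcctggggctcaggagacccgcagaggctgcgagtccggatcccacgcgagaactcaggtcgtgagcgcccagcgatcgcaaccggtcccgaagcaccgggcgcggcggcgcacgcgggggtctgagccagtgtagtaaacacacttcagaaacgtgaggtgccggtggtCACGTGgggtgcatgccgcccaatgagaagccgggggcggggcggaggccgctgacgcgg
Per3, at chr4:151044666-151044915 on the minus strand, held 2 D-boxes.
Per3: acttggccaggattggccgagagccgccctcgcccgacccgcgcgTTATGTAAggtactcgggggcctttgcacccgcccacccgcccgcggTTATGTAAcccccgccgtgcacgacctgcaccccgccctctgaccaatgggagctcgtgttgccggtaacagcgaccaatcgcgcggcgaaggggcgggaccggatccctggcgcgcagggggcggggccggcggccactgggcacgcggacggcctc
Nfil3, at chr13:52981040-52981289 on the minus strand, held the ROR element core in the orientation TGACCTA.
Nfil3: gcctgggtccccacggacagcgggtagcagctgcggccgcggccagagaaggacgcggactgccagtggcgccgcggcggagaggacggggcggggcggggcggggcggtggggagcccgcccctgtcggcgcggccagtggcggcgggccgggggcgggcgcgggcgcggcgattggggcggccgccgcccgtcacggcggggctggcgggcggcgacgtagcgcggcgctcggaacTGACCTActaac
In Arntl, at chr7:113207531-113207557 on the plus strand, the ROR element core began 30 bases after 1 of the 2 starts in the table, and the window of the other start, which lies upstream, did not reach it.
Arntl: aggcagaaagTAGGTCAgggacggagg
No searched motif of the clock was in this window of Npas2, Dbp, Nr1d1, Nr1d2, Clock, Hlf, Usp2, Upp2 or Alas1. This says only that these letters were not there. Among 160 promoters of 118 genes that rose, 15.6% held the E-box and 2.5% the ROR element core, and among 174 promoters of 129 genes that fell, 6.90% and 8.62% did. Among promoters of all tested genes, 9.80% and 5.29% did. The D-box was in 1.25% of promoters of risers, 0.575% of those of fallers and 0.771% of those of all tested genes. These shares are descriptions and carry no test.

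Arntl (Bmal1), the obligate partner of the activating pair, fell 24.2-fold. Its level was 42.4, 39.5 and 42.3 CPM at ZT 0, 17.6, 34.0 and 27.2 CPM at ZT 4 and 1.23, 1.65 and 2.28 CPM at ZT 8. The log2 change was -4.59 ± 0.21 (SE, n = 3 per time; adjusted p = 5.86e-05). Every mouse of ZT 8 was thus far below every mouse of ZT 0, with ZT 4 between them. The gene lies at chr7:113207465-113314126. Npas2, which can take the place of CLOCK, at chr1:39193731-39363236, showed the largest fall of all genes that passed. It was at 28.4, 30.9 and 20.7 CPM at ZT 0, 3.69, 9.19 and 6.81 CPM at ZT 4 and 0.235, 0.177 and 0.138 CPM at ZT 8 (log2 change -7.11, adjusted p = 4.76e-05). The low arm held 4, 3 and 2 counts, so the ratio is imprecise. The fold of summed counts was 143, with an exact 95% interval of 75.3 to 314 that covers counting error only. Clock, at chr5:76209868-76304792, fell less, from 77.4, 87.9 and 86.9 CPM to 43.8, 35.7 and 25.4 CPM (log2 change -1.26 ± 0.19, adjusted p = 0.0140), with 66.7, 85.3 and 83.7 CPM at ZT 4. The call for Clock was lost without ZT 0 replicate 2 (adjusted p = 0.0777) or replicate 3 (adjusted p = 0.0738). The groups of all 3 genes did not overlap.

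Rora, a receptor that activates through ROR elements, did not pass. It was at 98.6, 108 and 104 CPM at ZT 0 and 78.6, 53.9 and 61.8 CPM at ZT 8 (log2 change -0.67, adjusted p = 0.0621, and 0.0165 without ZT 8 replicate 1). Its groups did not overlap. Rorb had 0 counts and was not tested.

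Among the repressors, the REV-ERB receptors rose together. Nr1d1 (Rev-erbα), at chr11:98767932-98775333, was at 2.32, 2.28 and 6.51 CPM at ZT 0, 71.4, 33.9 and 41.3 CPM at ZT 4 and 117, 63.4 and 81.4 CPM at ZT 8 (log2 change 4.56 ± 0.44, adjusted p = 0.00259). It was 23.6-fold higher, and without ZT 0 replicate 3, its highest early library, the log2 change was 5.24. Of its 3077 exon bases, 263 are shared with Thra on the other strand, and the strand setting of the counting is not given in the sources used here. Nr1d2 (Rev-erbβ) was at 10.03, 12.0 and 13.5 CPM at ZT 0, 75.4, 48.4 and 57.5 CPM at ZT 4 and 142, 130.03 and 141 CPM at ZT 8 (log2 change 3.54 ± 0.14, adjusted p = 4.76e-05). Both receptors were already above every ZT 0 mouse in each mouse of ZT 4, and Nr1d2 had the narrower spread.

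Of the Period genes, Per3 and Per2 were called. Per3 rose from 3.63, 1.52 and 1.52 CPM to 83.1, 61.8 and 82.2 CPM, a log2 change of 5.07 ± 0.34 (adjusted p = 0.000365), and stood at only 5.53, 4.45 and 6.38 CPM at ZT 4. Per2 rose from 15.4, 13.7 and 20.1 CPM to 46.9, 62.3 and 31.1 CPM (log2 change 1.51 ± 0.26, adjusted p = 0.0244). That call was lost without ZT 0 replicate 1, 2 or 3 or ZT 8 replicate 1 (adjusted p = 0.107, 0.127, 0.0649 and 0.0531). Per1 was at 15.5, 19.3 and 2.98 CPM at ZT 0 and 54.0, 57.2 and 51.5 CPM at ZT 8 and did not pass (log2 change 2.11, adjusted p = 0.0830). The groups of Per1 did not overlap, but ZT 0 replicate 3 lay far below the other ZT 0 mice, and without it the log2 change was 1.64 with an adjusted p of 0.00850.

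Of the cryptochromes, only Cry1 was called. It fell from 45.2, 43.0 and 45.3 CPM at ZT 0 through 11.3, 41.1 and 26.3 CPM at ZT 4 to 9.69, 7.204 and 8.35 CPM at ZT 8 (log2 change -2.40 ± 0.14, adjusted p = 0.000190). Cry2 was at 23.4, 24.5 and 27.1 CPM and 41.2, 23.1 and 50.9 CPM and its groups overlapped (log2 change 0.62, adjusted p = 0.256). The overlap came from ZT 8 replicate 2, the library with muscle transcripts, without which the log2 change of Cry2 was 0.88 and it passed (adjusted p = 0.0301).

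Of the other inhibitors of the activating pair, Ciart and Bhlhe41 were called and Bhlhe40 was not. Ciart (Chrono) rose from 0.907, 0.570 and 0.608 CPM to 22.3, 13.4 and 17.5 CPM, with 0.198, 0.534 and 0.182 CPM at ZT 4 (log2 change 4.65 ± 0.29, adjusted p = 0.000269). Its ZT 4 libraries were below those of ZT 0, unlike those of Nr1d1 and Nr1d2. Bhlhe41 (Dec2) had 0 counts in every ZT 0 library and 18, 32 and 102 counts at ZT 8, so that a gene tested with these counts had to differ. Against a floor of 3 counts per library it was at least 18.4-fold higher (adjusted p = 0.0462), and at least 8.15-fold higher without ZT 8 replicate 3, which holds 102 of its counts. In the test, without ZT 0 replicate 1, 2 or 3 the adjusted p was 0.109 to 0.130. It fell under the minimum of the test without ZT 8 replicate 2 or 3. Of its 6720 exon bases, 1280 are shared with Gm43909 on the other strand. Bhlhe40 (Dec1) was at 75.4, 66.2 and 62.2 CPM at ZT 0 and 205, 86.5 and 199.9 CPM at ZT 8 without passing (log2 change 1.27, adjusted p = 0.0719). Its lowest ZT 8 value was that of replicate 2, without which the log2 change was 1.58 and the adjusted p 0.00218.

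The D-box regulators held the largest rise among called genes with counts in every library of both times. Dbp, at chr7:45705088-45710203, had 15, 4 and 7 counts at ZT 0, which is 0.850, 0.253 and 0.426 CPM, and 12.0, 1.96 and 3.83 CPM at ZT 4 and 151, 105 and 178 CPM at ZT 8. The fitted change was 275-fold (log2 change 8.10 ± 0.38, adjusted p = 5.86e-05), and the fold of summed counts was 274 with an exact 95% interval of 187 to 420. Of its 2993 exon bases, 539 are shared with Sphk2 on the other strand. Tef rose 11.3-fold, from 26.1, 18.6 and 19.8 CPM through 82.8, 36.3 and 60.4 CPM to 245, 224 and 261 CPM (log2 change 3.50 ± 0.16, adjusted p = 5.86e-05). Hlf rose only 1.79-fold, from 41.4, 35.04 and 34.1 CPM to 73.8, 61.7 and 62.3 CPM (log2 change 0.84 ± 0.13, adjusted p = 0.0155), and lost its call without ZT 0 replicate 2 or 3 (adjusted p = 0.0996 and 0.101). Nfil3, which represses at the same D-boxes, fell from 63.3, 69.5 and 64.2 CPM to 16.3, 11.6 and 11.3 CPM, with 36.1, 62.3 and 35.5 CPM at ZT 4 (log2 change -2.33 ± 0.16, adjusted p = 0.000443). The groups of all 4 did not overlap. On a level per kilobase of the gene length in the deposited table, Nfil3 led these 4 at ZT 0 with a mean of 32.4 CPM per kb, and Dbp led them at ZT 8 with 48.3 CPM per kb, ahead of Tef at 30.9, Hlf at 9.87 and Nfil3 at 6.45 CPM per kb.

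**Figure D2:**
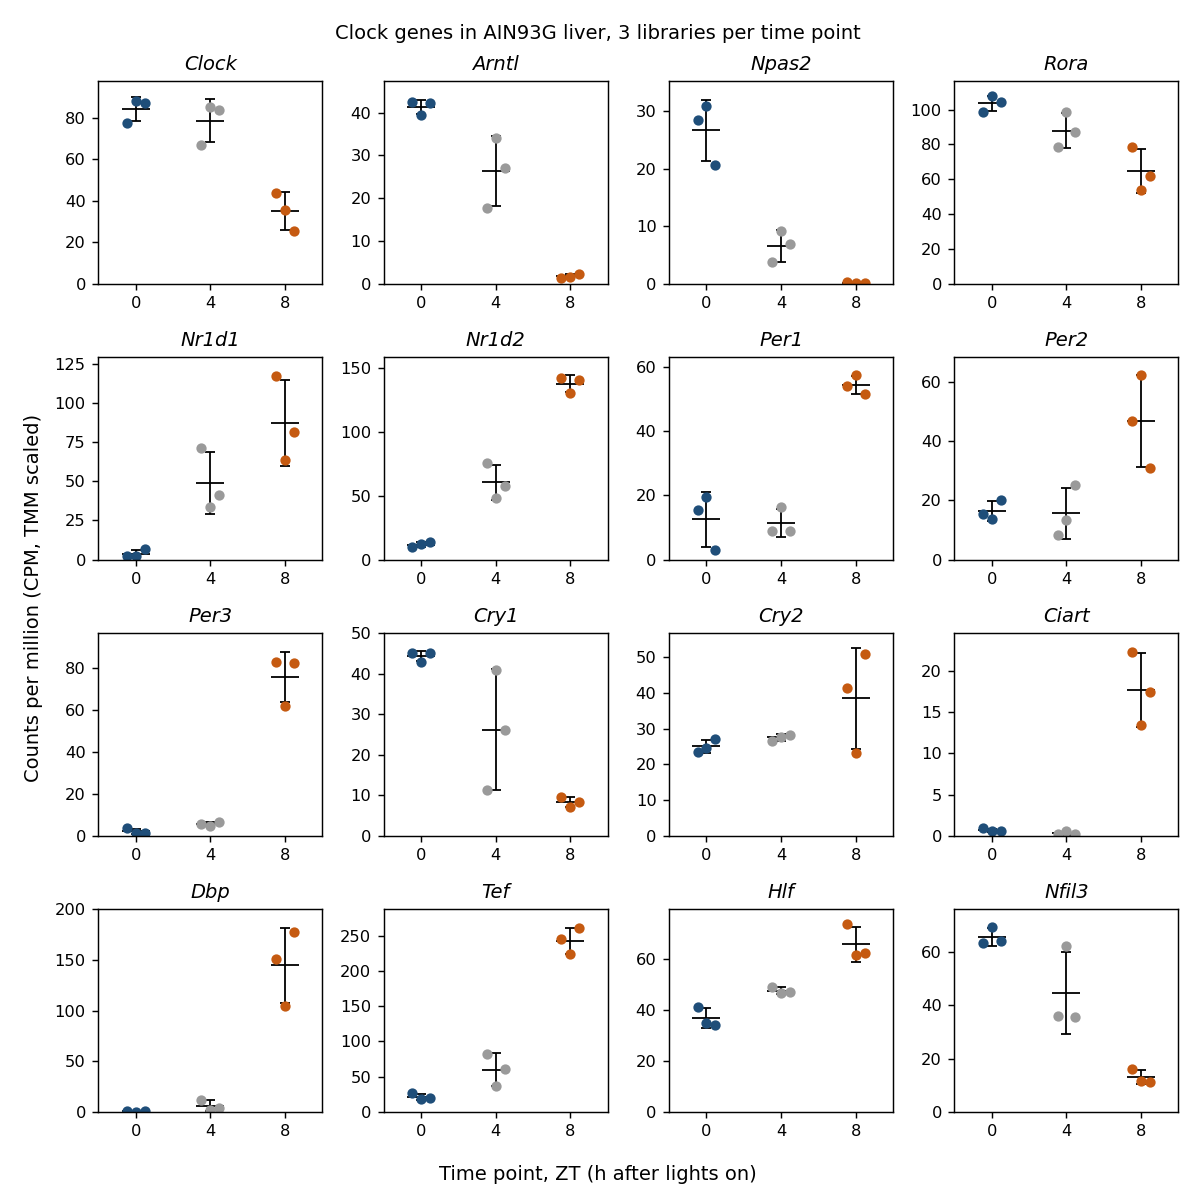
Levels of 16 clock genes in CPM (y axes, starting at 0) at ZT 0, ZT 4 and ZT 8 on the AIN93G diet, with 1 point per mouse and bars for mean ± SD (n = 3). Arntl, Npas2, Cry1 and Nfil3 end near the bottom of their range at ZT 8, while Dbp, Tef, Per3, Ciart, Nr1d1 and Nr1d2 end near the top.

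Genes known as outputs of the clock in liver were listed next. Of 20 tested, 8 rose and 4 fell (median log2 change 1.40), against 1.30% and 1.53% of all genes. The list was written with earlier results of these data known, so its share of calls is a description. The counts were 5 and 2 without ZT 0 replicate 3 and 6 and 2 without ZT 0 replicate 2. Usp2, a deubiquitinase, rose from 2.27, 1.33 and 1.83 CPM to 27.1, 39.3 and 35.3 CPM, with 1.12, 2.31 and 1.76 CPM at ZT 4 (log2 change 4.22 ± 0.23, adjusted p = 0.000147). Por, the reductase that passes electrons to all microsomal cytochromes P450, rose from 124, 123 and 106 CPM to 391, 531 and 332 CPM (log2 change 1.83, adjusted p = 0.00296). Upp2, a uridine phosphorylase, rose from 123, 52.6 and 44.7 CPM to 561, 584 and 728 CPM (log2 change 3.09, adjusted p = 0.00625). These 3 kept their calls without any single library. Alas1, the rate-limiting enzyme of heme synthesis, rose from 122, 191 and 102 CPM to 865, 1839.8 and 472 CPM (log2 change 2.94 ± 0.49, adjusted p = 0.0213). Its highest value was in ZT 8 replicate 2, without which the log2 change was 2.28. The call was lost without ZT 0 replicate 1, 2 or 3 (adjusted p = 0.0996, 0.0711 and 0.117). Of the other rising outputs, Gys2 is described with glycogen below, and Wee1, Noct and Nampt, like Avpr1a and Tars among the falling ones, were added with their values seen, so that every called output is given. The mitotic inhibitor kinase Wee1 rose from 3.80, 2.09 and 2.62 CPM to 14.9, 9.68 and 13.7 CPM (log2 change 2.16, adjusted p = 0.00685). The nocturnin gene Noct rose from 7.88, 18.9 and 8.09 CPM to 65.2, 79.5 and 44.6 CPM (log2 change 2.45, adjusted p = 0.0140). Nampt, which makes the precursor of NAD, rose from 53.7, 60.9 and 60.7 CPM to 127, 152 and 82.7 CPM (log2 change 1.046, adjusted p = 0.0415). Of the 6 fits that left out a library, Wee1 was called in 6, Noct in 4 and Nampt in 1.

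Of the 4 falling outputs, Cdkn1a, which encodes the cell cycle inhibitor p21, went from 22.4, 28.4 and 13.1 CPM to 1.53, 3.54 and 2.35 CPM (log2 change -3.10 ± 0.37, adjusted p = 0.00592). The vasopressin receptor Avpr1a fell from 103, 110.0 and 89.2 CPM to 46.7, 30.8 and 40.3 CPM (log2 change -1.36, adjusted p = 0.00649). The threonyl-tRNA synthetase Tars fell from 261, 269 and 263 CPM to 119, 104 and 151 CPM (log2 change -1.08, adjusted p = 0.00901). Cdkn1a and Avpr1a were called in all 6 fits that left out a library and Tars in 4. The last was the glycogen-targeting subunit Ppp1r3c, described with glycogen. Among 19 genes that modify clock proteins or chromatin, such as kinases, ubiquitin ligases and corepressors, the median was -0.05. Per3, which stands in that list too, was the only one to pass, against 1.30% higher and 1.53% lower of all genes. The corepressor Ncor1 was at 137, 150.5 and 137 CPM at ZT 0 and 119.6, 110.3 and 81.1 CPM at ZT 8 (log2 change -0.45, adjusted p = 0.179). Kdm2a and Nfyb had log2 changes of -0.21 and -0.22 (adjusted p = 0.355 and 0.441).

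By fitted size of change, the 15 largest rises with a gene name and groups apart were Bhlhe41, Dbp, Per3, Ciart, Nr1d1, Usp2, Nr1d2, Tef, Cyp2g1, Upp2, Alas1, Slc2a5, Azin2, Cyp2a5 and Mcm10. The place of Bhlhe41 is not supported by its counts, since its bound of 18.4-fold is below the fitted folds of Dbp (275), Per3 (33.7), Ciart (25.1) and Nr1d1 (23.6). Cyp2g1, a cytochrome P450 of low level here, rose from 1.08, 0.317 and 0.243 CPM to 3.64, 4.78 and 6.49 CPM (log2 change 3.15, adjusted p = 0.0244). Without ZT 0 replicate 1 its log2 change was 4.10, and its call was lost without ZT 0 replicate 2 or 3 (adjusted p = 0.121 and 0.106). Slc2a5, a fructose transporter, rose from 1.36, 1.33 and 0.852 CPM to 5.76, 7.26 and 12.6 CPM (log2 change 2.85, adjusted p = 0.00724). Both of these genes stayed below 13 CPM in every mouse. Azin2, an antizyme inhibitor in polyamine metabolism, rose from 0.567, 0.824 and 0.669 CPM to 4.88, 3.54 and 5.52 CPM (log2 change 2.75, adjusted p = 0.00516). Mcm10, a factor of replication initiation, rose from 12.2, 15.0 and 10.7 CPM through 33.3, 15.1 and 25.3 CPM to 55.6, 79.6 and 80.9 CPM (log2 change 2.51 ± 0.19, adjusted p = 0.000670). Of 25 tested genes of a cell cycle and DNA replication list, which does not hold Mcm10, 0 passed with edgeR, with a median of -0.04, 3 had an unadjusted p under 0.05 and DESeq2 called 1.

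Among the 15 largest falls were Npas2, Loxl4, Arntl, Slc34a2, Sytl5, Tubb2a, Ppard, Cdkn1a, Chka, Lonrf3, Clic3, Dhrs9, Srgap3 and Adcy1. Loxl4, a lysyl oxidase of the extracellular matrix, fell from 31.4, 39.5 and 31.3 CPM through 8.89, 24.0 and 20.5 CPM to 0.940, 1.24 and 2.001 CPM (log2 change -4.62 ± 0.26, adjusted p = 0.000147). Tubb2a, a beta-tubulin, fell from 241, 219 and 188 CPM to 23.2, 15.2 and 27.3 CPM (log2 change -3.30 ± 0.23, adjusted p = 0.000378). Ppard, the nuclear receptor PPARδ, fell from 73.8, 55.1 and 74.6 CPM through 7.31, 37.8 and 17.6 CPM to 6.05, 7.44 and 7.38 CPM (log2 change -3.28 ± 0.17, adjusted p = 0.000114). The 3 ZT 8 mice lay close together for each of these genes, and far below ZT 0. Chka, the choline kinase that starts phosphatidylcholine synthesis from choline, fell from 165, 142 and 176 CPM to 29.4, 14.7 and 15.7 CPM (log2 change -3.01, adjusted p = 0.00186). Slc34a2, a sodium phosphate cotransporter, fell from 7.76, 14.9 and 8.76 CPM to 1.12, 0.531 and 1.04 CPM (log2 change -3.54, adjusted p = 0.00369). None of these 5 genes lost its call without any single library.

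The remaining large falls were in genes of lower level. Clic3, a chloride channel protein, fell from 12.5, 13.6 and 25.4 CPM to 2.53, 3.19 and 1.59 CPM (log2 change -2.81, adjusted p = 0.00685). Lonrf3 fell from 7.82, 6.34 and 7.12 CPM to 0.764, 0.827 and 1.31 CPM, and Srgap3, a GTPase-activating protein, from 7.03, 5.01 and 5.54 CPM to 0.940, 1.06 and 0.690 CPM (log2 changes -2.87 and -2.69, adjusted p = 0.00289 and 0.00394). Sytl5, a synaptotagmin-like Rab effector, fell by a log2 change of -3.31 (adjusted p = 0.0127), and it was under the minimum of the test without ZT 0 replicate 1. Those 4 genes were below 26 CPM in every mouse. Dhrs9, a retinol dehydrogenase, had a log2 change of -2.78 (adjusted p = 0.0223), which was -3.39 without ZT 8 replicate 2, and it lost the call without ZT 0 replicate 1, 2 or 3 (adjusted p = 0.0838, 0.0996 and 0.0693). Adcy1, an adenylyl cyclase, had a log2 change of -2.69 (adjusted p = 0.0128) and lost the call without ZT 0 replicate 1 or 2 (adjusted p = 0.0579 and 0.0681).

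**Figure D3:**
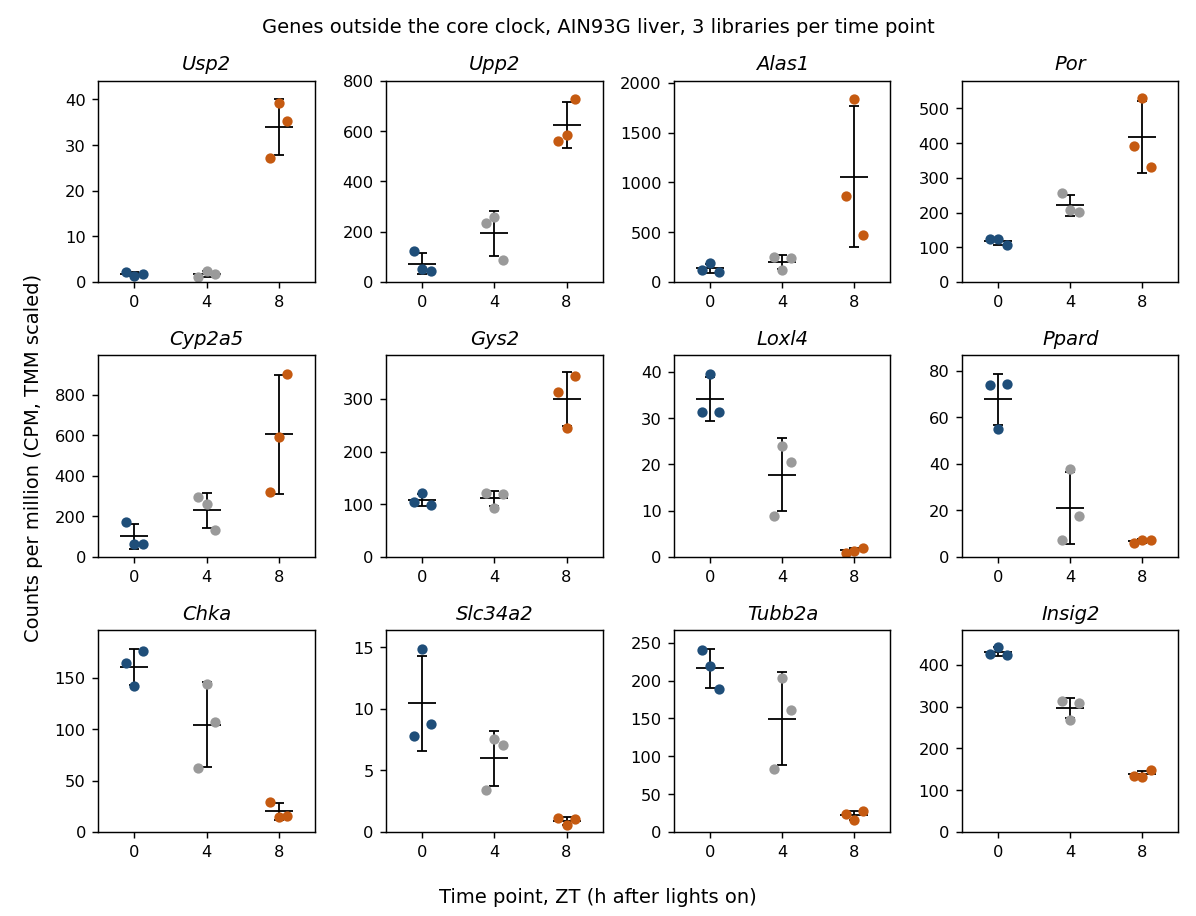
Levels of 12 genes outside the core loop in CPM (y axes, starting at 0) at ZT 0, ZT 4 and ZT 8 on the AIN93G diet, with 1 point per mouse and bars for mean ± SD (n = 3). Usp2, Upp2, Alas1, Por, Cyp2a5 and Gys2 are highest at ZT 8 and Loxl4, Ppard, Chka, Slc34a2, Tubb2a and Insig2 lowest.

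Heat shock genes, whose transcripts follow body temperature and feeding in liver, mostly had a change below 0. Of 19 tested, 17 had a change below 0 and 12 an unadjusted p under 0.05, against 18.2% of all genes, but only 2 fell by the test, against 1.53% of all genes (median -0.41). The count was 4 without ZT 8 replicate 3 and 0 without ZT 8 replicate 2. Hsp90aa1, the inducible cytosolic HSP90, fell from 247, 349 and 317 CPM to 182, 149 and 126 CPM (log2 change -0.998 ± 0.18, adjusted p = 0.0285). Hspa4l, an HSP110 family member, fell from 36.7, 46.5 and 43.3 CPM to 26.0, 25.8 and 21.7 CPM (log2 change -0.78, adjusted p = 0.0249). Both calls were lost without ZT 8 replicate 2 (adjusted p = 0.0790 and 0.0545), and without ZT 0 replicate 2 (adjusted p = 0.129 and 0.124) or replicate 3 (adjusted p = 0.128 and 0.123). Hspa1b, an inducible HSP70 whose reads may be split with its near copy Hspa1a, was at 17.4, 29.4 and 16.6 CPM and 8.28, 6.50 and 2.42 CPM (log2 change -1.87, adjusted p = 0.0602, and 0.0347 without ZT 8 replicate 3). Hsph1 and Stip1, a nucleotide exchange factor and a cochaperone, had log2 changes of -1.02 and -0.53 (adjusted p = 0.122 and 0.0908). Of the cold-inducible RNA-binding proteins, Rbm3 rose from 22.6, 23.9 and 23.4 CPM to 33.1, 35.2 and 33.3 CPM (log2 change 0.54, adjusted p = 0.0357), a call that only the fit without ZT 8 replicate 3 kept among the 6 that left out a library (adjusted p 0.0658 to 0.169 in the others). Cirbp was at 20.97, 14.8 and 18.1 CPM and 16.4, 16.5 and 30.9 CPM (log2 change 0.24, adjusted p = 0.682).

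Most genes of protein folding in the endoplasmic reticulum had a change below 0. Of 29 chaperone and stress response genes, 26 had a change below 0 and 20 an unadjusted p under 0.05, against 18.2% of all genes. By the test, 3 fell and 0 rose, against 1.53% and 1.30% of all genes. The median was -0.51, against 0.01 over all tested genes. Without ZT 0 replicate 1, 6 fell. Without ZT 8 replicate 2, 0 fell and 1 rose, which was the pseudokinase gene Trib3, named with its values seen (log2 change 2.63, adjusted p = 0.0207 in that fit). Sdf2l1, a luminal chaperone cofactor, fell from 30.8, 64.8 and 83.0 CPM to 23.6, 18.8 and 18.4 CPM (log2 change -1.55, adjusted p = 0.0496). Eif2ak3, the stress sensor kinase PERK, fell from 31.2, 37.9 and 39.5 CPM to 23.1, 15.5 and 15.9 CPM (log2 change -0.99, adjusted p = 0.0322). Edem1, which passes misfolded glycoproteins to degradation, fell from 303, 356 and 389 CPM to 237, 211 and 226 CPM (log2 change -0.64, adjusted p = 0.0423). Each was highest in ZT 0 replicate 3 and lowest in ZT 0 replicate 1 among its ZT 0 mice. None of the 3 kept its call without ZT 8 replicate 2, at an adjusted p of 0.113, 0.0813 and 0.134, nor without ZT 0 replicate 2, at 0.175, 0.141 and 0.170, or ZT 0 replicate 3, at 0.170, 0.153 and 0.182. Without ZT 0 replicate 1, Eif2ak3 had an adjusted p of 0.0633. Without ZT 8 replicate 1, Sdf2l1 and Edem1 had 0.0759 and 0.0587. Without ZT 8 replicate 3, the 3 had 0.0848, 0.0532 and 0.0573. Manf and Pdia4, a secreted stress protein and a disulfide isomerase, had log2 changes of -1.24 and -0.92 (adjusted p = 0.0537 and 0.0713), and both passed without ZT 0 replicate 1 (adjusted p = 0.0222 and 0.0488). DESeq2 called 12 of these 29 genes lower and 7 of the 19 heat shock genes. Of 22 genes that carry proteins into the secretory pathway, 19 had a change below 0 (median -0.28). Among them, 8 had an unadjusted p under 0.05, against 18.2% of all genes. Only the signal peptidase subunit Spcs2 fell by the test, against 1.53% of all genes. It went from 113, 141 and 149 CPM to 84.0, 77.4 and 88.1 CPM (log2 change -0.69, adjusted p = 0.0344). The call for Spcs2 was lost without ZT 0 replicate 2 or 3 or ZT 8 replicate 1 or 2 (adjusted p = 0.155, 0.168, 0.0656 and 0.106). Spcs3, Ssr1, Ssr3 and Srp68, of the same route, had log2 changes of -0.58, -0.58, -0.56 and -0.44 without passing. Without ZT 0 replicate 1, Spcs3 and Ssr1 passed (adjusted p = 0.0423 and 0.0464), so that 3 of the 22 fell, and DESeq2 called 5 lower.

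Of 21 genes of lipogenesis and its regulators, 0 rose and 1 fell (median -0.48), against 1.30% and 1.53% of all genes. An unadjusted p under 0.05 was reached by 10, against 18.2% of all genes. The falling gene was Insig2, which holds the precursors of the SREBP factors in the endoplasmic reticulum. It fell from 427, 444 and 423 CPM through 313, 269 and 309 CPM to 134, 132 and 147 CPM (log2 change -1.64 ± 0.11, adjusted p = 0.000315), with little spread within a time. The main stearoyl-CoA desaturase Scd1 was at 20819, 9959.7 and 14404 CPM at ZT 0 and 5163, 4563 and 10296 CPM at ZT 8 (log2 change -1.17 ± 0.38, adjusted p = 0.156, and 0.0406 without ZT 8 replicate 3). Fasn, the fatty acid synthase, was at 2174, 1103 and 1266 CPM and 659, 652 and 1429 CPM (log2 change -0.73 ± 0.37, adjusted p = 0.344). For both, ZT 8 replicate 3 lay within the range of ZT 0. Acaca, the acetyl-CoA carboxylase, was at 453, 351 and 277 CPM and 212, 157 and 259 CPM (log2 change -0.78, adjusted p = 0.131). Elovl6, an elongase of saturated fatty acids, had a log2 change of -0.996 (adjusted p = 0.144). Srebf1, the lipogenic SREBP gene, was at 372, 232 and 397 CPM and 394, 369.9 and 621 CPM (log2 change 0.47, adjusted p = 0.390). Agpat2 and Dgat2, of glyceride synthesis, had log2 changes of -0.42 and 0.46 (adjusted p = 0.136 and 0.147). Without ZT 8 replicate 3, 3 of the 21 genes were called lower.

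Of the 5 desaturases and elongases of polyunsaturated fatty acids, 0 passed with edgeR, 1 had an unadjusted p under 0.05 and DESeq2 called 1 lower. The elongase Elovl5 was at 1498, 962 and 1006 CPM at ZT 0 and 595, 437 and 664 CPM at ZT 8 without overlap (log2 change -1.03, adjusted p = 0.0563, and 0.0468 without ZT 8 replicate 3). Fads1, Fads2, Fads6 and Elovl2 had log2 changes of -0.02, 0.38, 0.18 and -0.30, and the sign of Fads1 turned in some other fits. Of 27 genes of sterol synthesis and uptake, 0 passed with edgeR (median -0.15), 7 had an unadjusted p under 0.05, and DESeq2 called 1 higher and 2 lower. The smallest adjusted p of edgeR was that of the sterol carrier Stard4 (0.0974, log2 change 0.50). Fdps, Insig1, Mvd and Pmvk, of the sterol pathway and its control, had log2 changes of -1.42, -0.92, -0.59 and -1.06 with an adjusted p of 0.107, 0.164, 0.188 and 0.228, and Insig1 passed without ZT 8 replicate 3 (adjusted p = 0.0453).

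Both subunits of the sterol exporter of the bile canaliculus rose. Abcg5 went from 78.0, 95.2 and 88.3 CPM to 187, 156 and 153 CPM and Abcg8 from 89.3, 99.3 and 74.5 CPM to 156, 153 and 162 CPM (log2 changes 0.93 and 0.84, adjusted p = 0.0104 and 0.0140). They are neighbours on opposite strands that share 82 exon bases. Both calls were lost without ZT 0 replicate 1 (adjusted p = 0.0511 and 0.0640) or replicate 3 (adjusted p = 0.0648 and 0.0648). They were the only 2 of 28 genes of bile acid synthesis and transport to pass with all libraries (median 0.17). Of all tested genes, 1.30% were higher and 1.53% lower. An unadjusted p under 0.05 was reached by 11 of the 28, against 18.2% of all genes. Without ZT 8 replicate 3, 3 were higher and 1 was lower, and with DESeq2 5 and 2. The added genes of the former fit, named with their values seen, were Cyp7a1, the rate-limiting enzyme of bile acid synthesis (log2 change 2.35, adjusted p = 0.0126 in that fit), and Cyp8b1, which makes cholic acid (log2 change -1.60, adjusted p = 0.0111 in that fit). Slc10a1, the main uptake carrier of bile acids, was at 661, 609 and 577 CPM and 874, 803 and 974 CPM (log2 change 0.52, adjusted p = 0.0778). Hsd3b7 and Amacr, enzymes of bile acid synthesis, had log2 changes of -1.87 and 0.42 (adjusted p = 0.0642 and 0.0805), and exons of Hsd3b7 overlap other gene models.

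Of 44 genes of the PPARα program and fat oxidation, 2 rose and 0 fell, against 1.30% and 1.53% of all genes. The median was 0.26, against 0.01 over all tested genes. The counts were 5 and 0 without ZT 8 replicate 3, 2 and 1 without ZT 8 replicate 1 and 1 and 1 without ZT 8 replicate 2. The falling genes in the last 2 fits, named with their values seen, were Fgf21, a hormone of fasting, and Pdk4, which inhibits pyruvate dehydrogenase (log2 changes -3.01 and -3.66, adjusted p = 0.0176 and 0.00263 in those fits). A change above 0 was seen in 33 of the 44. An unadjusted p under 0.05 was reached by 11, and the groups did not overlap in 11, against 18.2% and 23.5% of all tested genes. Acaa1a, the peroxisomal thiolase, rose from 115, 112 and 100.3 CPM to 237, 212 and 209.9 CPM (log2 change 1.01 ± 0.11, adjusted p = 0.00409), and reads may be split with its close paralog Acaa1b. Cpt1a, the entry step of mitochondrial fat oxidation, rose from 256, 292 and 263 CPM to 529.6, 461 and 402 CPM (log2 change 0.78, adjusted p = 0.0245). The call for Cpt1a was lost without ZT 0 replicate 1, 2 or 3 or ZT 8 replicate 2 (adjusted p = 0.0996, 0.0942, 0.131 and 0.0671). Ppargc1a, a coactivator, Cidec, of lipid droplets, and Bdh1, of ketone metabolism, had log2 changes of 0.96, 1.11 and 0.42 without passing (adjusted p = 0.119, 0.0725 and 0.153), and Ppargc1a passed without ZT 8 replicate 3 (adjusted p = 0.0468).

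In glycogen metabolism, the synthase and its regulators moved apart. Gys2, the liver glycogen synthase, rose from 104, 121 and 98.1 CPM to 312, 244 and 344 CPM, with 121, 93.6 and 119 CPM at ZT 4 (log2 change 1.48 ± 0.16, adjusted p = 0.00369). Ppp1r3b and Ppp1r3c, which bring protein phosphatase 1 to glycogen, both fell. Ppp1r3b went from 557, 388 and 419.6 CPM to 182, 228 and 141 CPM and Ppp1r3c from 129, 179 and 143 CPM to 47.0, 18.5 and 51.1 CPM (log2 changes -1.31 and -1.95, adjusted p = 0.0183 and 0.0273). Slc2a2, the hepatocyte glucose transporter GLUT2, rose from 291, 302 and 227 CPM to 507, 436 and 519 CPM (log2 change 0.84, adjusted p = 0.0249). The groups of these 4 genes did not overlap. They were the 2 rising and 2 falling among 27 genes of glycolysis, fructose and glycogen (median -0.02), against 1.30% and 1.53% of all genes. Gys2 kept its call without any single library. The other 3 lost theirs without ZT 0 replicate 1, at an adjusted p of 0.0624, 0.0699 and 0.0757, replicate 2, at 0.0509, 0.120 and 0.0838, or replicate 3, at 0.0682, 0.106 and 0.107, and Slc2a2 also without ZT 8 replicate 1 (0.0525). Pfkfb3, a regulator of glycolysis, was at 8.44, 9.76 and 11.1 CPM and 22.97, 64.0 and 19.5 CPM (log2 change 1.86, adjusted p = 0.0703), highest in ZT 8 replicate 2, the library with muscle transcripts. Without that library the log2 change of Pfkfb3 was 1.12 and it passed (adjusted p = 0.0221), as it did without ZT 8 replicate 3 (adjusted p = 0.0284).

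Of 18 genes of gluconeogenesis and insulin signaling, 1 rose and 0 fell (median 0.13), against 1.30% and 1.53% of all genes. The only one to pass was Foxo3, a transcription factor under insulin control. It rose from 38.3, 37.2 and 36.2 CPM to 54.6, 61.5 and 73.2 CPM (log2 change 0.76, adjusted p = 0.0243), and lost the call without ZT 0 replicate 1, 2 or 3 or ZT 8 replicate 2 (adjusted p = 0.0838, 0.125, 0.128 and 0.0535). Igfbp1, an insulin-repressed binding protein of the IGFs, was at 241, 336 and 158 CPM at ZT 0 and 78.7, 41.3 and 15.7 CPM at ZT 8 (log2 change -2.43, adjusted p = 0.0582). Irs2, the insulin receptor substrate that insulin represses, was at 64.9, 79.2 and 52.8 CPM and 41.8, 19.8 and 19.5 CPM (log2 change -1.28, adjusted p = 0.0770). Neither overlapped between the times, and each had its highest ZT 8 value in replicate 1. Without that library the log2 changes of Igfbp1 and Irs2 were -3.11 and -1.75 and both passed (adjusted p = 0.0254 and 0.00779). Igfbp1 also passed without ZT 8 replicate 3 (adjusted p = 0.0341). Irs1 and the glucose 6-phosphate transporter Slc37a4 had log2 changes of -0.91 and 0.54 (adjusted p = 0.0812 and 0.106). Irs1 also passed without ZT 8 replicate 1 (log2 change -1.19, adjusted p = 0.0214), a fit in which 3 of the 18 genes were called lower, against 0 with all libraries.

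Of 43 genes of the urea cycle and amino acid catabolism, 36 had a change above 0, 14 had an unadjusted p under 0.05, against 18.2% of all genes, and 1 rose, against 1.30% of all genes (median 0.24). This was Sds, the serine dehydratase, which went from 92.8, 106 and 85.4 CPM to 189.7, 244 and 238 CPM (log2 change 1.24 ± 0.14, adjusted p = 0.00436). Tdo2, which opens tryptophan breakdown, had a log2 change of 0.70, and its groups did not overlap (adjusted p = 0.0703). Gpt2 and Bckdha, of alanine and branched-chain amino acids, had log2 changes of 0.66 and 0.43 (adjusted p = 0.0762 and 0.0998). DESeq2 called 7 of the 43 higher and 1 lower. With edgeR, 2 were higher without ZT 8 replicate 1, and 1 was higher and 1 lower without ZT 8 replicate 3.

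Among 32 cytochromes P450 of drug metabolism and their regulators, 2 rose and 0 fell (median 0.19), against 1.30% and 1.53% of all genes. The rising genes were 1 without ZT 8 replicate 2 and 8 with DESeq2. Cyp2e1, the ethanol-inducible P450, rose from 3733, 3361 and 3674 CPM to 7819.7, 7492 and 6365 CPM (log2 change 1.01 ± 0.15, adjusted p = 0.0137). Cyp2a5, a coumarin hydroxylase nearly identical in sequence to Cyp2a4, so that reads may be split, rose from 174, 64.5 and 63.4 CPM to 318, 593 and 902 CPM (log2 change 2.58 ± 0.50, adjusted p = 0.0379, and log2 change 3.23 without ZT 0 replicate 1). Cyp2e1 lost its call without ZT 0 replicate 1, 2 or 3 (adjusted p = 0.0537, 0.0996 and 0.0857), and Cyp2a5 without ZT 0 replicate 2 or 3 or ZT 8 replicate 2 or 3 (adjusted p = 0.161, 0.169, 0.0624 and 0.0548). Cyp1a2, Rxra and Nr1i2 (PXR) had log2 changes of 0.83, 0.48 and 0.39 (adjusted p = 0.0798, 0.0770 and 0.0908). Of 41 conjugation genes, 1 rose and 1 fell (median 0.23), against 1.30% and 1.53% of all genes. The glutathione transferase Gstt2 rose from 29.6, 24.8 and 25.01 CPM to 60.8, 68.7 and 94.5 CPM. Gclc, the rate-limiting enzyme of glutathione synthesis, fell from 417, 348 and 395 CPM to 229, 156 and 182 CPM. Their log2 changes were 1.495 and -1.03 (adjusted p = 0.00592 and 0.0159). Gclc lost its call without ZT 0 replicate 1, 2 or 3 (adjusted p = 0.0627, 0.0547 and 0.0831).

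Of 14 genes of the growth hormone axis, 2 rose and 1 fell (median 0.24), against 1.30% and 1.53% of all genes. Igfbp2, a binding protein of the IGFs, rose from 310.0, 341 and 297 CPM to 586, 602 and 536 CPM (log2 change 0.86, adjusted p = 0.00814, and 0.0619 without ZT 0 replicate 3). Cux2, a female-biased liver repressor, rose from 8.67, 9.88 and 12.0 CPM to 58.2, 50.2 and 18.3 CPM and stood at 50.1, 79.0 and 57.7 CPM at ZT 4 (log2 change 2.06, adjusted p = 0.0344). Stat5a, which carries the growth hormone signal, fell from 24.99, 30.4 and 24.7 CPM to 14.3, 10.3 and 15.7 CPM (log2 change -0.99, adjusted p = 0.0301). Cux2 lost its call without ZT 0 replicate 1, 2 or 3 or ZT 8 replicate 1 or 2 (adjusted p 0.0700 to 0.156), and Stat5a without ZT 0 replicate 1, 2 or 3 or ZT 8 replicate 1 (adjusted p 0.0522 to 0.136). Stat5b and Igfbp4 had log2 changes of -0.56 and 0.71 (adjusted p = 0.142 and 0.0582). Stat5b passed without ZT 8 replicate 3 (adjusted p = 0.0133) and Igfbp4 without ZT 8 replicate 1 (adjusted p = 0.0285).

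**Figure D4:**
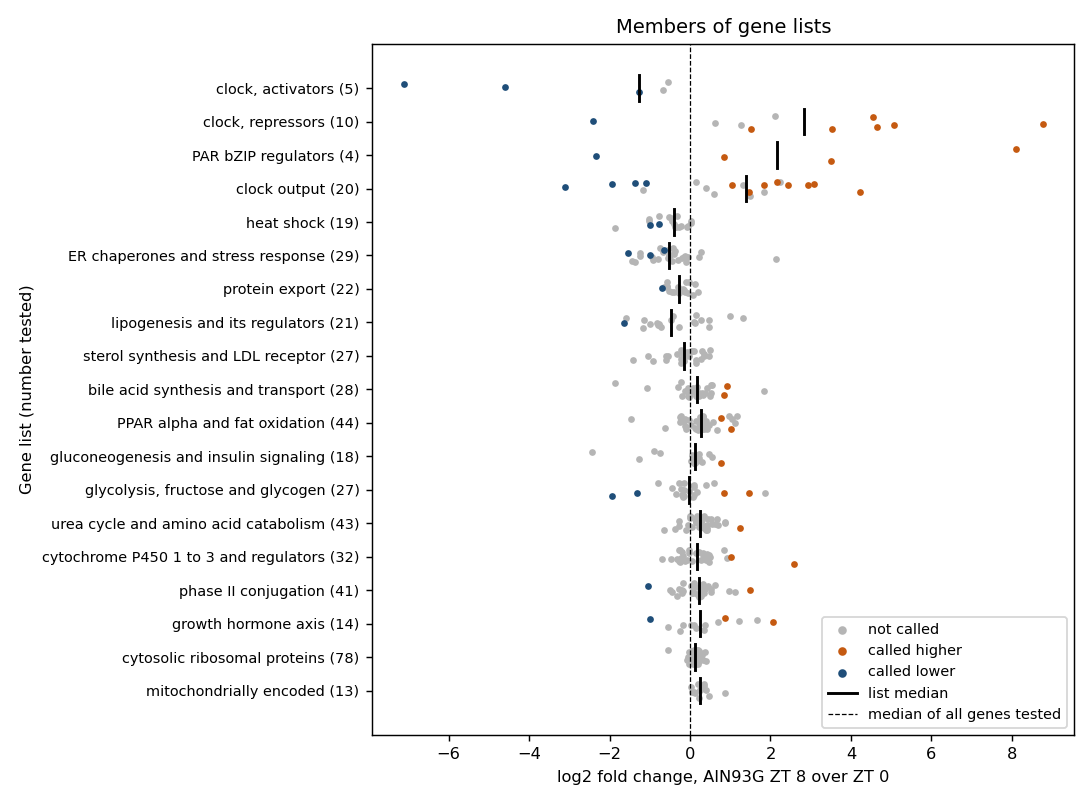
Log2 fold change from ZT 0 to ZT 8 on the AIN93G diet (x axis) of the tested members of 19 of the gene lists (y axis), with 1 point per gene, calls coloured and the list median marked. The clock lists are spread far to both sides of 0, with medians of -1.26, 2.82, 2.17 and 1.40 for activators, repressors, D-box (PAR bZIP) regulators and outputs, while the medians of the other lists shown lie between -0.51 and 0.26.

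The same interval on the HFD rests on other mice, so its values are independent of those above. There, 82 of 12091 tested genes were higher at ZT 8, which is 0.678%, and 136 were lower, which is 1.12%. Of the 157 genes that rose on AIN93G, 156 were tested on the HFD, 152 changed in the same direction and 46 passed in that direction. Of the 184 that fell, 177 were tested, 175 changed in the same direction and 86 passed in it. None passed in the other direction, and of all 11814 genes tested on both diets 65.1% had the same sign. The 132 genes called on both diets were 38.7% of the AIN93G calls and 60.6% of the HFD calls. The median HFD log2 change was 0.76 over the AIN93G risers and -0.96 over the fallers. The HFD counts of higher and lower genes were 34 and 58 without ZT 0 replicate 2, 31 and 48 without ZT 0 replicate 3, 43 and 68 without ZT 8 replicate 1, 127 and 136 without ZT 8 replicate 2 and 50 and 69 without ZT 8 replicate 3. At ZT 8, the muscle markers summed to 39.4, 2.59 and 132 CPM in the HFD libraries.

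The 6 clock genes compared here changed on both diets. On the HFD, Arntl was at 46.3, 39.4 and 46.2 CPM at ZT 0 and 2.52, 2.13 and 1.57 CPM at ZT 8, and its AIN93G change minus its HFD change was -0.18 on the log2 scale (95% interval -0.79 to 0.44). Dbp was at 0.498, 0.713 and 0.382 CPM and 98.9, 118 and 102 CPM on the HFD (difference of changes 0.48, 95% interval -0.62 to 1.58). Nr1d1 was at 9.78, 8.37 and 2.95 CPM and 52.7, 78.6 and 72.5 CPM (difference 1.29, 95% interval -0.03 to 2.62). All 3 intervals hold 0, that of Nr1d1 only just, and they are wide, so they do not show that the diets act alike. For Cry1, Per3 and Tef the differences were -0.60, -0.62 and -0.06 (95% intervals -1.43 to 0.24, -1.73 to 0.49 and -0.62 to 0.50). Npas2 had 0, 1 and 0 counts at ZT 8 on the HFD, at the floor, so its change there has no fold.

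The difference between the diets in the change from ZT 0 to ZT 8 was tested gene by gene. Of 12070 genes, 0 reached an adjusted p under 0.05 with edgeR, where the smallest was 0.944, and 490 had an unadjusted p under 0.05. DESeq2 also called 0, with 512 at an unadjusted p under 0.05. With no filter on low counts edgeR called 156, of which 118 had the higher change on AIN93G and 38 the lower, so the count of 0 holds for the filtered genes. The 5 genes with the smallest p are given as values. Igfbp2 was at 245, 482 and 446 CPM at ZT 0 and 319, 325 and 317 CPM at ZT 8 on the HFD (difference of log2 changes 1.16, 95% interval 0.56 to 1.77). Slc16a5, a monocarboxylate transporter, rose on AIN93G from 9.12, 5.89 and 10.2 CPM to 34.2, 27.6 and 17.7 CPM and was at 29.0, 28.9 and 13.7 CPM and 24.4, 14.8 and 20.1 CPM on the HFD (difference 1.94, 95% interval 0.96 to 2.92). Its AIN93G call was lost without ZT 0 replicate 1, 2 or 3 or ZT 8 replicate 1 (adjusted p 0.0504 to 0.0977). Klhl25, an adaptor of a ubiquitin ligase, was at 22.7, 24.4 and 21.4 CPM and 21.1, 20.3 and 25.3 CPM on AIN93G and at 25.2, 29.6 and 26.6 CPM and 15.2, 13.6 and 15.7 CPM on the HFD (difference 0.84, 95% interval 0.45 to 1.24). Vps37b, of endosomal sorting, and the long noncoding RNA gene Ctcflos had differences of 1.15 and 1.39 (95% intervals 0.56 to 1.73 and 0.62 to 2.16). These intervals are for single genes and are not adjusted for the 12070 tests.

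**Figure D5:**
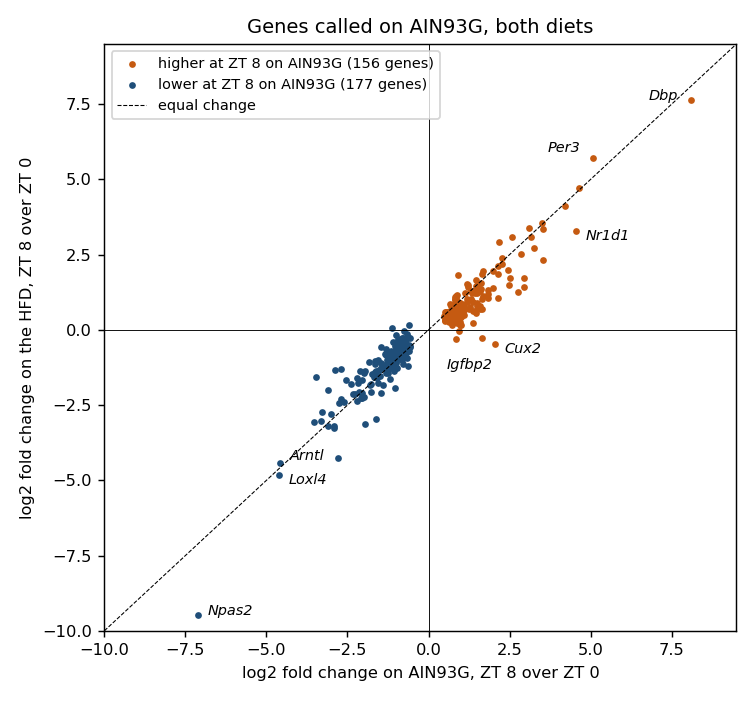
Log2 fold change from ZT 0 to ZT 8 on the HFD (y axis) against that on the AIN93G diet (x axis), 1 point per gene called on AIN93G and tested on the HFD, with a dashed line of equal change. Of the 156 risers 152 lie above 0 on the HFD, and of the 177 fallers 175 lie below it, and the HFD value of Npas2 comes from a group at the floor.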

How the data were processed

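Read counts, with no scaling applied, are what the authors deposited, as 1 matrix of genes by 42 libraries. The submitters' processing notes name fastp, STAR, STAR-Fusion, HTSeq 0.6.1, DESeq and mm10, with no settings, and the strand setting is not given in the sources used here. Of 54532 genes, 28811 had no count in the 6 libraries. With R 4.3.3 and edgeR 4.0.16, genes that averaged 25 or more counts were tested between 3 and 3 libraries with TMM scaling and the quasi-likelihood F-test, at a Benjamini-Hochberg adjusted p under 0.05. SE is the absolute log2 change divided by the square root of F. CPM was scaled over 15 libraries, and a level of at most 3 counts per library is the floor. DESeq2 1.42.0, limma 3.58.1, other scalings and filters, larger fits and leaving out each library were alternatives. The fits were tested on simulated counts. Intervals of count ratios and floors cover counting error only, while intervals of differences between diets come from the SE of the fit. No sample was left out. Depth was 15128304 to 17975846 counts per library.

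Gene lists were written by hand, and members and lists were chosen with earlier results of these data known. Named genes are all members of the 3 clock loop lists and of the genes the authors measured by PCR, the 5 members of each other list with the smallest adjusted p, the 15 largest rises and falls with a gene name and groups apart, the 5 genes with the smallest interaction p, and the members called in lists with few calls. Some genes that this rule names are not reported here. Gene positions are those of the table, in mm10. Of its identifiers, 54495 were found in GENCODE M21. Promoters are from RefSeq on GRCm38.p6, and 49 of 62 genes of the clock, output and temperature lists had one.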

Additional observations from a re-analysis of the deposited data

How the results depend on the processing

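Of the 341 calls at ZT 8 against ZT 0 on AIN93G, 341 were kept with RLE scaling and with DESeq2, 321 with limma voom and 312 with library size alone, and the total was within 1.5 times of 341 under these except DESeq2, which called 858 (409 higher, 449 lower). Without a filter on low counts 979 genes were called (520 and 459). In a single fit of ZT 0 to ZT 12, 4 were called, and the cause was not tested. A single fit of ZT 0, ZT 4 and ZT 8, chosen after seeing the data, called 411. Leaving out each library gave 118 to 444 calls, with 175 without ZT 0 replicate 1, 129 without replicate 2 and 118 without replicate 3, and 40 of the 157 higher and 60 of the 184 lower genes were called in all 6 such fits. On the HFD, DESeq2 called 602 and no filter 876 genes, and leaving out each library gave 79 to 263, against 218. For the interaction, no filter gave 156 calls (118 and 38), and leaving out each library 0 to 1.

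The sign turned in genes that did not pass. Fads1 had a log2 change of 0.0027 with limma voom, and -0.1684 to 0.1315 over the fits without 1 library. Those ranges were -0.1302 to 0.3957 for Cirbp, -0.1463 to 0.02338 for Klhl25 and -0.1342 to 0.05858 for Vps37b. No paired analysis was possible because the sample records give no replicate numbers, which follow accession order here. On each diet 1 title prefix, whose meaning the records do not give, is shared by a ZT 0 and a ZT 8 mouse, both replicate 2 on AIN93G, and 1 pair allows no block.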

Other observations

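Gene groups outside those above gave few calls at ZT 8 against ZT 0 on the AIN93G diet. Of all tested genes, 1.30% were higher and 1.53% lower. Of 78 cytosolic ribosomal protein genes, 0 passed with edgeR and 0 had an unadjusted p under 0.05, with a median log2 change of 0.13, and DESeq2 called 0. Rpl17, Rpl7, Rpl10a, Rpl29 and Rpl26 had log2 changes of 0.20, 0.18, 0.19, 0.18 and 0.20, and reads of such genes may be split with pseudogenes. Of 37 genes of ribosome biogenesis, Rcl1, which acts in rRNA processing, rose from 107, 121 and 94.3 CPM to 157, 159 and 192 CPM (log2 change 0.66, adjusted p = 0.0476), and it lost the call whichever library was left out (adjusted p 0.0605 to 0.204). Rrp9 and Gnl3 had log2 changes of 0.88 and 0.75, and Ncl and Rrn3 of 0.31 and 0.59, without passing. Rrp9 passed without ZT 8 replicate 1 (adjusted p = 0.0471) and Gnl3 without ZT 8 replicate 3 (adjusted p = 0.0133). All 13 tested mitochondrially encoded genes had a change above 0 (median 0.25), 0 passed with edgeR, 3 had an unadjusted p under 0.05 and DESeq2 called 1. mt-Nd1, a subunit of complex I, was at 3555, 2989.6 and 3084 CPM at ZT 0 and 3790.2, 4376 and 4604 CPM at ZT 8.

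Among stress, iron and acute phase genes, 1 per list passed, with 18 immediate early, 17 iron and 25 acute phase genes tested. Of all tested genes, 1.30% were higher and 1.53% lower. Klf6, an immediate early zinc finger gene, fell from 16.9, 11.7 and 15.2 CPM to 8.05, 8.09 and 7.25 CPM (log2 change -0.90, adjusted p = 0.0379), and only the fit without ZT 0 replicate 2 kept the call among the 6 that left out a library (adjusted p 0.0610 to 0.168 in the others). Maff, Ier2, Myc and Junb had log2 changes of 1.56, 0.90, 1.98 and 1.42 without passing. Myc passed without ZT 8 replicate 1 (adjusted p = 0.0350) and Junb without ZT 8 replicate 2 (adjusted p = 0.0151). Saa4, a constitutive serum amyloid A, rose from 129.8, 117 and 112 CPM to 206, 263 and 229.9 CPM (log2 change 0.97, adjusted p = 0.00814, and 0.0618 and 0.0613 without ZT 0 replicate 2 or 3). Slc11a2, the iron transporter DMT1, fell from 52.1, 54.5 and 58.4 CPM to 28.8, 28.8 and 28.6 CPM, with little spread at ZT 8 (log2 change -0.94 ± 0.10, adjusted p = 0.00409). Bnip3, a mitophagy receptor, rose from 82.1, 79.5 and 72.6 CPM to 156, 151 and 122 CPM (log2 change 0.87, adjusted p = 0.0127), and lost the call without ZT 0 replicate 1, 2 or 3 (adjusted p 0.0537 to 0.0831). Of the glucocorticoid-responsive and metallothionein genes, Mt1 was at 34.7, 14.2 and 15.0 CPM at ZT 0 and 128, 303 and 55.3 CPM at ZT 8 without passing (log2 change 2.92, adjusted p = 0.0539). Its highest value was in ZT 8 replicate 2, without which the log2 change was 2.10 (adjusted p = 0.0694), and it passed without ZT 8 replicate 3 (adjusted p = 0.0128). Of 19 lipoprotein genes 0 passed with edgeR, 1 had an unadjusted p under 0.05 and DESeq2 called 1. Apoa1, the main protein of HDL, had a log2 change of 0.35 (adjusted p = 0.354). The other 10 lists of cell types, besides hepatocytes, adipocytes and muscle, held 0 genes that passed with edgeR. Their summed levels overlapped between the times in 9 of 10, and the lymphocyte list stood at 19.7 to 22.1 CPM at ZT 0 and 14.6 to 18.2 CPM at ZT 8.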
